A study of Mus musculus with 2 samples.

Results

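The peaks described here lie at the loci of Hif1a and Ahr, a pair of genes on mouse chromosome 12 that encode sensors of the cell's environment. They come from chromatin immunoprecipitation followed by sequencing (ChIP-seq) of REV-ERBα in T helper 17 (Th17) cells, CD4 T cells that make interleukin-17. The cells were wild-type and grown in primary culture, and the labels name no other allele or agent. There was 1 ChIP sample, made with an antibody to REV-ERBα, and 1 input sample, which is DNA of the same kind of cells without antibody selection. A listed peak was a member when its midpoint fell in the Hif1a window, chr12:74950000-75080000, which takes in the gene's upstream flank, or in the Ahr window, chr12:36190000-36300000, both in the mm9 build. By this rule 9 of the 8884 listed peaks were members, 6 in the Hif1a window and 3 in the Ahr window, and neither window was without a peak. The windows were selected on the positions and tags of listed peaks, with the peak list in view, so the numbers, positions and strengths of their peaks are a description and carry no test. With 1 ChIP sample there is no replicate check, and the 95% intervals below cover counting error only.

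HIF1A and AHR belong to the same family of transcription factors, with a basic helix-loop-helix and a PAS domain, and both bind DNA with the partner ARNT. HIF1A is degraded when oxygen is plentiful and accumulates when it is scarce; in Th17 cells it is known to drive glycolysis and to act with RORγt, the transcription factor that defines these cells. AHR is held in the cytoplasm until it binds a ligand, such as an environmental pollutant or a product of tryptophan, and in Th17 cells it is known for its part in the production of interleukin-22. REV-ERBα, encoded by Nr1d1, is a clock-controlled nuclear receptor and a transcriptional repressor, and it reads the same DNA element as the ROR receptors, the hexamer AGGTCA preceded by A and T bases.

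The promoter of Hif1a is shown because it could be searched for that hexamer; the promoter of Ahr was not searched here. The 250 bases before the gene's start are given from RefSeq in the build GRCm38.p6, chr12:73907617-73907866 on the plus strand, 5′ to 3′, with the match in capitals.
Hif1a promoter: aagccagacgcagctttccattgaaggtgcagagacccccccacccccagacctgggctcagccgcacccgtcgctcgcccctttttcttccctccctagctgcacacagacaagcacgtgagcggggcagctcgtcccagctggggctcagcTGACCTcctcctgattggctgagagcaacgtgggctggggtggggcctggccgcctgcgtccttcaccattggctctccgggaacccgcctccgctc
The capitals, TGACCT, are AGGTCA read on the minus strand, 97 to 92 bases before the start. On that strand the 6 bases before the match are aggagg, of which 2 are A or T, so the match is to the hexamer and not to an element with a full run of A and T bases before it. The search covered AGGTCA on both strands and found this 1 match. Among all 32851 promoters of the RefSeq table, 14.0% held AGGTCA on either strand within the same 250 bases. The shorter letters GGTCA, which overlap the hexamer, were found in 35.2% of promoters and at no other place in that of Hif1a. A match is a description of these letters and is not a bound site. The GRCm38.p6 coordinates cannot be set against the mm9 peaks, so whether any peak covers this promoter was not analysed here, nor was whether a peak is exonic or intronic. In the RefSeq gene order the nearest protein-coding genes are Prkch and Snapc1 on either side of Hif1a, and Snx13 and Agr3 on either side of Ahr. A peak in a window may therefore also lie near one of these, and is named by its window and its order along the chromosome.

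In the Hif1a window, 5 of the 6 peaks lay close together and the remaining peak lay far from them. Peak 1, chr12:74977722-74978028, held 24 ChIP tags (95% Poisson interval 15.4 to 35.7), where a tag is an aligned read. Peak 2, chr12:74980839-74981145, held 25 tags (16.2 to 36.9). Peak 3, chr12:74989043-74989349, held 50 tags (37.1 to 65.9). Peak 3 was the strongest of the window, and its interval lay above those of peaks 1, 2, 4 and 5. Peak 4, chr12:74996669-74996975, held 15 tags (8.40 to 24.7). Peak 5, chr12:75002130-75002436, held 17 tags (9.90 to 27.2). Peak 6, chr12:75075738-75076044, held 29 tags (19.4 to 41.7). The interval of peak 6 overlapped those of all other peaks in the window. Of the 383 peaks on chromosome 12, 2 had more tags than peak 3, while peak 4 came at rank 182.

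In the Ahr window, the peaks with the most tags lay next to each other. Peak 1, chr12:36237818-36238124, held 32 tags (21.9 to 45.2). Peak 2, chr12:36247575-36247881, held 37 tags (26.1 to 51.0) and came at rank 9 on the chromosome, tied with 1 other peak. Peak 3, chr12:36263509-36263815, held 18 tags (10.7 to 28.5). The interval of peak 3 reached that of peak 2, and the differences between the 3 peaks were not tested.

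**Figure D1:**
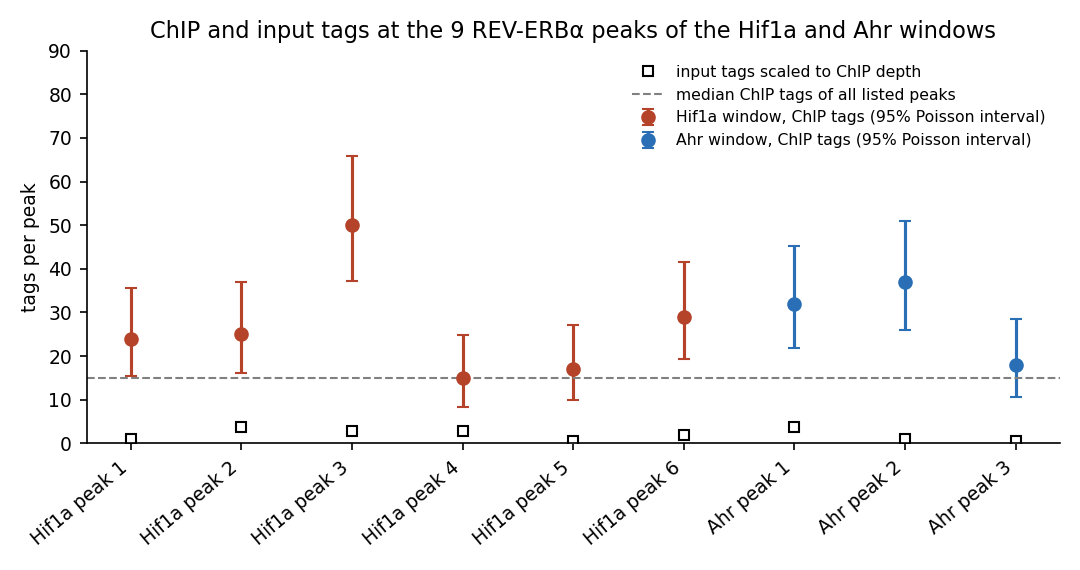
ChIP tags (filled points, bars are 95% Poisson intervals) and input tags scaled to the ChIP depth (open squares) at each of the 9 peaks, with the median of all listed peaks, 15 tags, as a dashed line. Only Hif1a peak 4, at 15 tags, is not above that line, and input stays at or below 3.8 scaled tags at every peak shown.

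The median over the 9 peaks was 25 tags, against 15 in the whole list, whose quartiles were 12 and 20. In all, 8 of the 9 peaks had more tags than the list's median, as had 45.3% of all listed peaks. At least 20 tags, the upper quartile, were found at 6 of them, against 26.4% of the list. Together the Hif1a peaks held 160 tags (136 to 187) and the Ahr peaks 87 tags (69.7 to 107), out of 161147 tags in all listed peaks. The caller's score, the authors' own measure of peak height, ran from 12 to 39 in the Hif1a window and from 16 to 35 in the Ahr window, and the median of the list was 13. By peak the score was 25, 21, 39, 12, 14 and 23 from Hif1a peak 1 to 6, and 27, 35 and 16 from Ahr peak 1 to 3. The score put Hif1a peak 1 above peak 2, whereas the tags put it 1 tag below, so these neighbours are not ordered.

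Input was low at all 9 peaks, as it was in the whole list, whose median was 1.9 scaled tags. In the Hif1a window the scaled input tags were 0.9, 3.8, 2.8, 2.8, 0.5 and 1.9 from peak 1 to 6, and in the Ahr window they were 3.8, 0.9 and 0.5 from peak 1 to 3. One input tag is worth 0.945 scaled tags, so these values stand for 1, 4, 3, 3, 0 and 2 input tags in the first window and 4, 1 and 0 in the second. The value 0.5 is the lowest listed and was read as no input tag, which applied to 2 of the 9 peaks and to 16.8% of the list.

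Because each input value rests on so few tags, the fold of a peak over input was imprecise. Hif1a peak 3 was listed at 17.6-fold over input, with a 95% binomial interval of 5.70 to 88.4. Hif1a peak 4, the weakest member, was listed at 5.29-fold (1.496 to 28.5), and peak 2 at 6.61-fold (2.28 to 26.1). Those were the lowest folds in the Hif1a window, and 10.4% and 26.8% of listed peaks had a lower one. Hif1a peak 1 was listed at 25.4-fold (4.14 to 1044) and peak 6 at 15.3-fold (3.88 to 133). Ahr peak 1 was listed at 8.46-fold (3.001 to 32.9) and Ahr peak 2 at 39.1-fold, the latter (6.60 to 1587) on 1 input tag. These intervals all overlap, and the differences in fold among the peaks were not tested. For the peaks without an input tag only a lower bound can be given, set by a floor of 3 input tags per peak. With the ChIP tags, 17 and 18, taken as exact, it was 5.995-fold higher in ChIP than in input for Hif1a peak 5 and 6.35-fold higher for Ahr peak 3. A limit that also allowed for the counting error of these tags would be lower. The 2 bounds are therefore not comparable with the binomial intervals above.

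Summed over a window the input tags allowed a firmer value. The Hif1a peaks had 160 ChIP tags against 12.3 scaled input tags, a fold of 13.02 (7.40 to 24.99). The Ahr peaks had 87 against 4.73, a fold of 18.4 (7.59 to 58.1). The intervals overlapped, and the difference between the loci was not tested. The authors required 4-fold, so all members exceed that by selection. At least 8-fold over input was listed for 7 of the 9 peaks and for 61.5% of the list, counting the peaks without an input tag at their listed fold. The authors' Poisson p over input, which takes the scaled input as known, ran from 3.52e-45 at Ahr peak 2 to 3.35e-07 at Hif1a peak 4.

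Enrichment over the surrounding 10000 bp separated the peaks differently. In the Hif1a window the listed local fold was 5.24, 5.91, 11.56, 5.94, 5.92 and 14.13 from peak 1 to 6, so peaks 1, 2, 4 and 5 lay between 5.24 and 5.94 and only peaks 3 and 6 were at least 8-fold. In the Ahr window it was 13.00, 10.19 and 5.54 from peak 1 to 3. At least 8-fold was thus reached by 4 of the 9 peaks, against 47.5% of the list, and the median of the list was 7.78.

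Hif1a peaks 1 and 6 had similar tags and different local folds. They had 24 and 29 tags, each inside the interval of the other, but local folds of 5.24 and 14.13. Dividing tags by local fold gives the tags expected from the local region, which were 4.58 at peak 1 and 2.05 at peak 6. At peaks 2 and 3 the local expectation was also high, 4.23 and 4.33, and it was 2.53 at peak 4 and 2.87 at peak 5. In the Ahr window it was 2.46, 3.63 and 3.25 from peak 1 to 3. All 9 values were above the list's median of 1.93, as were 49.9% of all listed peaks, and Hif1a peaks 1, 2 and 3 were above 96.2% or more of them. The nearest listed peak lay 3.12 kb away at Hif1a peaks 1 and 2 and 7.63 kb away at peak 3. It lay 5.46 kb away at peaks 4 and 5 and 73.6 kb away at peak 6. At Ahr it lay 9.76 kb away at peaks 1 and 2 and 15.9 kb away at peak 3. The local region spans 10000 bp in all. If it is centred on the peak, only Hif1a peaks 1 and 2 have the midpoint of a listed neighbour inside it. Their distance does not show how much the neighbour adds. The part of neighbouring peaks in the local expectation was not tested.

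**Figure D2:**
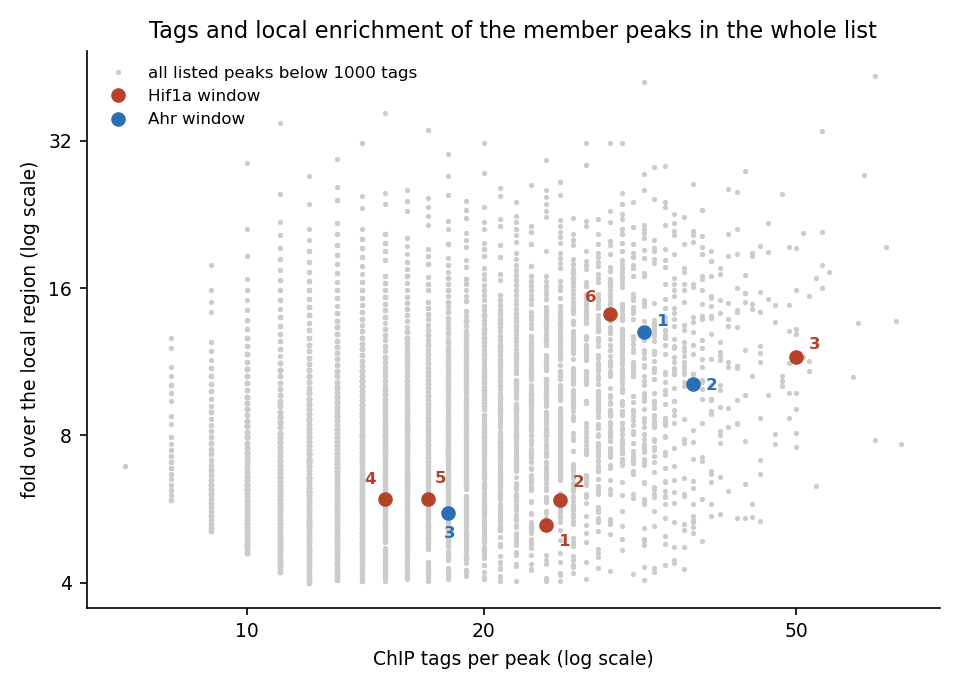
ChIP tags (horizontal, log scale) against fold over the local region (vertical, log scale) for all listed peaks below 1000 tags (grey) and the members, numbered along the chromosome within each window. Hif1a peaks 1, 2, 4 and 5 and Ahr peak 3 lie below 6-fold, while Hif1a peaks 3 and 6 and Ahr peaks 1 and 2 lie above 10-fold.

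The spacing of the peaks differed between the windows. Within the Hif1a window, the distances from midpoint to midpoint were 3117 bp from peak 1 to 2 and 8204 bp from peak 2 to 3. They were 7626 bp from peak 3 to 4 and 5461 bp from peak 4 to 5. At most 15.9% of the 8864 distances between neighbours in the list were shorter than any of these, and all 4 were above the caller's minimum of 612 bp. The next distance, 73608 bp to peak 6, was longer than the list's median of 50.8 kb. The stretch between peaks 5 and 6 held no listed peak over 73.3 kb, or 56.4% of the window. A second stretch without a peak, of 27.7 kb, opened the window.

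In the Ahr window the distances were 9757 bp from peak 1 to 2 and 15934 bp from peak 2 to 3. The first 47.8 kb and the last 36.2 kb of the window held no peak, which is 43.5% and 32.9% of its length. A stretch without a listed peak is not shown to be unbound, since sites below the caller's threshold of 9 tags are not listed, nor are sites that failed the 4-fold filter over input or over the local region, which stronger sites can also fail.

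A chain here is a run of peaks in which neighbouring midpoints lie no more than 10 kb apart. Hif1a peaks 1 to 5 formed a chain of 5 peaks over 24.4 kb with 131 tags, and Ahr peaks 1 and 2 formed a chain of 2 with 69 tags. The list holds 11 chains of at least 5 peaks, of which 10 have exactly 5. Among those 10, the tags of the Hif1a chain were the most, but the next had 128 and 126, well within counting error, and the lowest had 72. Peak 3 was the strongest peak in any of the 11 chains, ahead of one of 40 tags on chromosome 1, and it was flanked by weaker peaks on both sides. Its 50 tags made up 38.2% of its chain, where the strongest peaks of the other 9 chains of 5 held 23.0% to 34.0% of theirs; these differences were not tested. Of the 1066 chains of 2, which had a median of 34 tags, 97.6% had fewer tags than the chain of Ahr peaks 1 and 2. That chain rests on a distance of 9757 bp, just under the 10 kb limit, and other chain distances were not tried for Ahr.

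**Figure D3:**
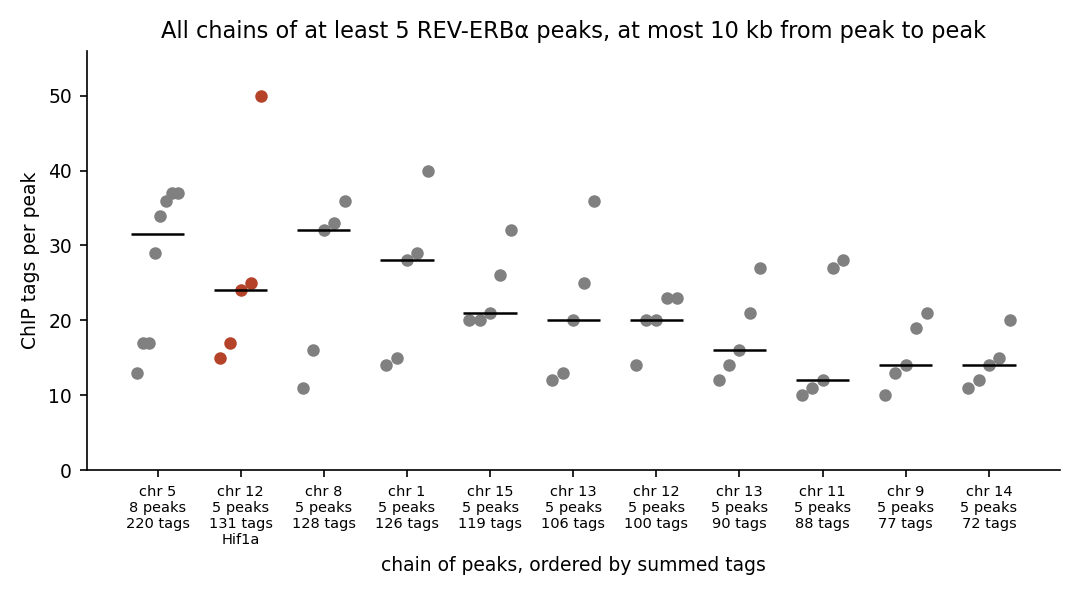
ChIP tags of every peak (points) in the 11 chains of at least 5 peaks, ordered by summed tags, with the median of each chain as a line and the Hif1a chain in red. The Hif1a chain has a median of 24 tags and the strongest single peak, at 50 tags.

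Both windows were dense in peaks, and both had further peaks on 1 side. The Hif1a window held 46.2 peaks per Mb (16.9 to 101) and the Ahr window 27.3 (5.62 to 79.7), where chromosome 12 as a whole had 3.29. That is 14.0 times the chromosome's density for Hif1a (5.14 to 30.5) and 8.28 times for Ahr (1.71 to 24.2). These ranges treat peaks as independent Poisson counts, which clustered peaks are not, so they are too narrow. That they exclude 1 is no test, as the windows were set around these peaks. Against the 1 Mb on each side, the ratio fell to 4.40 for Hif1a and 3.21 for Ahr. When all chromosomes were divided into windows of 130 kb, 0.677% of 20244 held at least 6 peaks and 78.0% held none. Of 23921 windows of 110 kb, 4.33% held at least 3. These shares place the windows in the list and are no test, since the windows were set around peaks already seen.

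The surroundings were one-sided, in opposite directions. Within 200 kb before the Hif1a window there were 8 peaks with 212 tags, and within 200 kb after it there were none. The first peak beyond Hif1a peak 6 lay 795 kb away. For Ahr the reverse held, with no peak within 200 kb before the window and 12 peaks with 194 tags within 200 kb after it. The nearest peak before Ahr peak 1 was 258 kb away.

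The windows' edges leave out peaks that are as strong as their members. Just inside the Hif1a window, peak 1 lies 27.9 kb from its start with 24 tags, and peak 6 lies 4.11 kb from its end with 29 tags. Just outside, 6.39 kb before the start, a peak at chr12:74943454-74943760 held 51 tags (38.0 to 67.1), with a score of 47, a fold over input of 53.95 on 1 input tag and a local fold of 11.54. It came at rank 2 by tags on chromosome 12, directly ahead of Hif1a peak 3, and lay 34.3 kb from Hif1a peak 1. Just inside the Ahr window, peak 3 lies 36.3 kb from the end. Just outside, 4.67 kb and 8.26 kb beyond it, peaks at chr12:36304513-36304819 and chr12:36308103-36308409 held 20 and 18 tags.

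**Figure D4:**
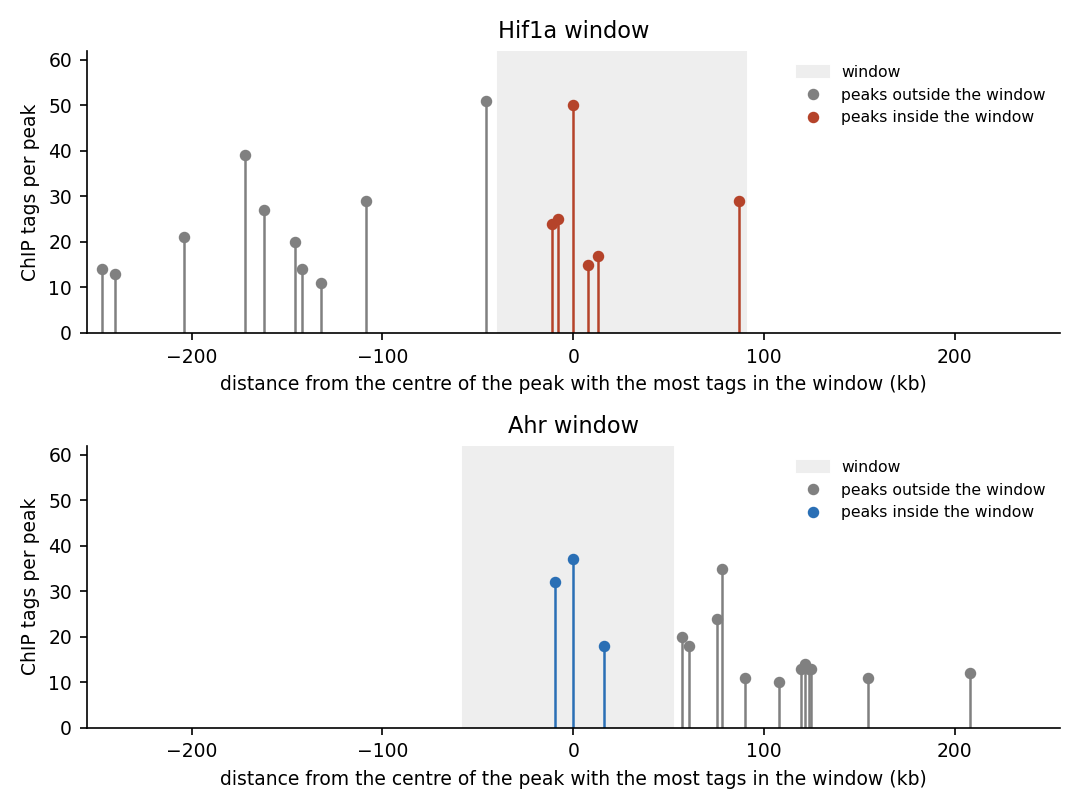
Position (horizontal, kb from the centre of the strongest peak in the window) and ChIP tags (vertical) of all listed peaks within 250 kb, for Hif1a above and Ahr below, with the window shaded. Other peaks lie on the lower-coordinate side of the Hif1a window and on the higher-coordinate side of the Ahr window. The opposite flanks are empty over the range shown.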

How the data were processed

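ChIP and input libraries of Th17 cells were sequenced, and the peak list of the ChIP sample was the only file used. Per the submitters' processing notes, the tools were CASAVA 1.8.2, Bowtie and HOMER, with coordinates in mm9; no version of Bowtie or HOMER is given there. Peaks were called with HOMER findPeaks against input at a false discovery rate of 0.001, and had to exceed both input and the surrounding 10000 bp by 4-fold with a Poisson p of 1e-04, per the file headers. At most 1 tag per bp was considered, and each peak has a fixed size of 306 bp.

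Total tags are counts of ChIP tags as deposited, from a library of 6390234 tags. The input signal was brought to the depth of the ChIP library by the authors. Folds over input and over the local region are the authors' deposited linear ratios, the p-values are the authors' own Poisson values, and the score is the authors' caller's peak height; a normalized tag signal, scaled by the authors to 10000000 tags, was not used further.

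Members were peaks with a midpoint in either window. Every member was named, and neighbouring genes were taken from gene order alone. The members, windows and lists were chosen with earlier results of these data known. Whole input tags were recovered from tags over fold: all 7392 peaks above the lowest value lay on multiples of 0.945 within 2%. Intervals are exact Poisson for tags and for numbers of peaks in a window, and exact binomial for folds. All cover counting error only, since there is 1 ChIP sample and 1 input sample. They treat tags as independent, which any PCR duplicates left under the limit of 1 tag per bp would not be. Chain and window counting was tested on simulated peaks. Chromosome density used the distance from first to last peak. Python 3.11.15, numpy 2.4.6, pandas 2.3.3, scipy 1.17.1 and matplotlib 3.10.9 were used. Alternatives changed fold and tag thresholds, window edges and chain distance. The other genes of the HIF and AHR pathways were not counted, since no mm9 annotation was used here.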

Additional observations from a re-analysis of the deposited data

How the results depend on the processing

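Numbers of peaks and of chain members were held to within 1.5 times the reported count, and tag sums and density ratios to the 95% counting interval of the reported value. By these limits 23 of 36 values under alternative settings stayed and 13 moved. Some of those that stayed could not move. Every member has at least 15 tags, the list's median, so a threshold at that median removed none of them. Requiring at least 8-fold over the local region left 2 of the 6 Hif1a peaks with 79 tags and 69 of the 87 Ahr tags. With 8-fold over input as the threshold there remained 120 of the 160 Hif1a tags. The largest chain in the Hif1a window fell from 5 peaks to 1 under either of these fold thresholds, as no remaining neighbours lay within 10 kb. Of the chain's peaks, 1, 3 and 5 still passed 8-fold over input, and only peak 3 passed 8-fold over the local region. The largest chain had 2 peaks with a chain distance of 5 kb. It stayed at 5 with 20 kb and with peaks at or above the median tags, and had 4 without the peak that has no input tag. Leaving out peaks without an input tag also reduced the Ahr tags to 69. Narrowing the windows by 10 kb removed Hif1a peak 6 and left 131 tags. Widening them by 20 kb gave 211 tags at Hif1a, and 5 peaks with 125 tags at Ahr. With the 1 Mb on each side as comparison, the density ratio was 4.40 for Hif1a in place of 14.0; the flanks hold more peaks than the chromosome on average. No paired analysis was possible because there is 1 ChIP sample and 1 input sample, and no replicate could be left out. Counts of input tags from 0 to 4 per peak limit the precision of the folds.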

Other observations

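The 12 peaks within 200 kb after the Ahr window, which the window leaves out, had 10 to 35 tags with a median of 13. Of these 12, 4 had more tags than the list's median of 15. The 3 peaks inside the window had 18 to 37 tags with a median of 32. Since the window was set with the peak list in view, this contrast is a description only. The strongest of the 12, chr12:36325732-36326038, held 35 tags (24.4 to 48.7). It was listed at 37.03-fold over input on 1 input tag and 8.46-fold over the local region. It lay 25.9 kb beyond the window's end. A chain of 4 peaks over 5.70 kb, from chr12:36366768 to 36372769, held 53 tags, with 13, 14, 13 and 13 tags by peak. The 8 peaks within 200 kb before the Hif1a window had 11 to 51 tags with a median of 24, and 6 of them had more than 15. The 6 peaks inside that window had a median of 24.5 tags. To which genes any of these peaks belong was not analysed here.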
